A study of Rattus norvegicus with 12 samples.

Results

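The 98 genes described here are the rows of the deposited gene tables that are named as nuclear subunits of oxidative phosphorylation, out of 26312 rows in all. They were chosen by name alone: names that begin with Nduf followed by a, b, c, s or v, Sdha to Sdhd, Uqcr, Cox4 to Cox8, and Atp5, leaving out the mitochondrial chromosome. By their known roles 35 belong to complex I, 4 to complex II, 8 to complex III, 18 to complex IV and 14 to complex V. A further 8 were counted as assembly factors, which the same name pattern takes in, though whether Atp5s is one was not examined. The remaining 11 rows were counted as further copies of a subunit gene at another place in the genome. Of these, Ndufs6 and Atp5h have no other row of the same name. Of the 98, 90 had enough reads to be tested. Of the 8 that had not, Cox8b had up to 9 reads in a library, and Cox8c, Ndufs6, Ndufb3l, NDUFV3, Ndufb4l1, Cox6c-ps1 and NDUFB4 had at most 3 reads in each of the 12 libraries.

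Oxidative phosphorylation takes electrons from NADH at complex I and from succinate at complex II, passes them through coenzyme Q to complex III and through cytochrome c to complex IV, where oxygen is reduced. The proton gradient that complexes I, III and IV build across the inner mitochondrial membrane drives complex V, the ATP synthase. Complexes I, III, IV and V combine nuclear-encoded subunits with a few encoded by mitochondrial DNA, whereas complex II is nuclear-encoded throughout.

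RNA was sequenced from the uterus of female rats that were 10 weeks old, ovariectomised and then rested for 2 weeks. The 4 groups were Holtzman Sprague Dawley (HSD) rats given progesterone, HSD rats given sesame oil, Brown Norway (BN) rats given progesterone and BN rats given sesame oil. The progesterone dose was 40 µg per g, given subcutaneously, oil was the vehicle, and the uterus was taken 9 h later. Each group held 3 animals with 1 library each, HSD being an outbred stock and BN an inbred strain. Ovariectomy removes the animal's own ovarian hormones in all 4 groups, so the oil groups are hormone-deprived controls. The libraries held between 11763894 and 19033254 gene reads, and the labels' sequencing barcodes do not overlap between the 4 groups, so that group and barcode cannot be told apart. All 11 smooth muscle and all 14 uterine epithelium markers measured were tested, their summed levels running from 10240 to 21469 and from 842 to 1454 CPM (read counts scaled to library size) over the libraries.

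Promoter sequence was available for 76 of the 87 members not counted as copies, as RefSeq sequence on the build GRCr8 covering 250 bases before to 50 bases after each gene's start. The motifs searched on both strands were GCGCA and GCGC with any 1 base between them, bound by the nuclear respiratory factor NRF1, CCGGAAG, bound by ETS proteins such as GABP, AAGATGGC, bound by YY1, and GGGCGG, bound by Sp1. NRF1, GABP and YY1 are known regulators of respiratory chain genes. The NRF1 motif was found in 15 of the 76 promoters (19.7%), against 6.09% of 19005 protein-coding promoters of the same length. CCGGAAG was found in 21 (27.6%, against 11.2%), AAGATGGC in 15 (19.7%, against 3.92%) and GGGCGG in 33 (43.4%, against 43.1%). At least 1 of NRF1, ETS and YY1 motifs was found in 43 (56.6%, against 18.8%). The 150 bases before the start are printed for the member of each complex with the most NRF1, ETS and YY1 matches there, the more abundant member being taken where members tied, as Ndufa11 and Ndufa13 did in complex I and Atp5i and Atp5j in complex V. They are also printed for a pair of the genes of the ATP synthase ring, Atp5g1, which passed the test under progesterone, and Atp5g2, which did not. Capitals mark NRF1 and ETS matches on either strand, and the sequences run 5′ to 3′ on the gene's strand.
Ndufa11 (complex I, GRCr8 chr9:1637464-1637613, plus strand): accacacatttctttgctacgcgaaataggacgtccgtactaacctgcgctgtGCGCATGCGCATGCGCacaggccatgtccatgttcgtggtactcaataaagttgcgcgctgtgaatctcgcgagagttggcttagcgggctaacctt
Sdha (complex II, GRCr8 chr1:30764403-30764552, plus strand): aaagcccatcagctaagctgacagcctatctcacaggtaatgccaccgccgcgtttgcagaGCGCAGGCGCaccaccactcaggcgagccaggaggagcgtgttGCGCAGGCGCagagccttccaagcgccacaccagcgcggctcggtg
Uqcrc2 (complex III, GRCr8 chr1:184599090-184599239, plus strand): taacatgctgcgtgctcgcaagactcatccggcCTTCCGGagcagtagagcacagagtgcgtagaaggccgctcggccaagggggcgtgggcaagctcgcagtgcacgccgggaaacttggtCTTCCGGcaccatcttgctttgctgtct
Cox8a (complex IV, GRCr8 chr1:213833624-213833773, minus strand): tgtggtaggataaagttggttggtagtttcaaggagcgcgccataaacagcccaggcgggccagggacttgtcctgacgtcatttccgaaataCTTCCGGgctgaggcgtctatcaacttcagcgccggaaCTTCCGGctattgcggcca
Atp5i (complex V, GRCr8 chr14:1464710-1464859, plus strand): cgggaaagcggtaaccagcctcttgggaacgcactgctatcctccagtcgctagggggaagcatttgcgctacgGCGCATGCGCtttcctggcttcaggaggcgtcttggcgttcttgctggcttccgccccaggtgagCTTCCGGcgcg
Atp5g1 (complex V, GRCr8 chr10:81523346-81523495, minus strand): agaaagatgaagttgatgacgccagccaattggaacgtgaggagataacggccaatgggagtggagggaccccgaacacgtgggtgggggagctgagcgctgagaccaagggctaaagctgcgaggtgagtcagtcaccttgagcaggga
Atp5g2 (complex V, GRCr8 chr7:135678219-135678368, minus strand): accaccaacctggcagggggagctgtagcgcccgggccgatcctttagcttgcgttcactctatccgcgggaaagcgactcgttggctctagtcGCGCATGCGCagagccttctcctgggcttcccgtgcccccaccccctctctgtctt

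Progesterone against oil asks which of these genes respond to the hormone within hours, and most of them were higher after progesterone. In HSD rats 69 of the 90 tested members were higher and 3 were lower, and their median log2 change was 0.72. In BN rats 39 were higher and 2 were lower, with a median of 0.36. Over all 15697 genes with enough reads the share called in HSD was 39.1%, 20.3% higher and 18.7% lower, with a median log2 change of -0.02. In BN 25.8% of all genes were called, 14.0% higher and 11.8% lower, with a median of -0.01. Calls rest on edgeR's quasi-likelihood test of gene reads, which count exons and introns, with p-values adjusted by the Benjamini-Hochberg method over the 15697 genes and a limit of 0.05. Log2 changes are given with a standard error, and each group holds 3 animals.

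Members of all 5 complexes were called higher in both strains. In HSD 28 of 35 complex I subunits were higher, 3 of 4 in complex II, 8 of 8 in complex III, 10 of 16 tested in complex IV and 13 of 14 in complex V. The medians of the log2 change were 0.72, 0.62, 0.69, 0.77 and 0.80 from complex I to complex V. In BN 16 subunits of complex I were higher, 2 of complex II, 3 of complex III, 5 of complex IV and 6 of complex V, with medians of 0.35, 0.31, 0.34, 0.33 and 0.41. No subunit of complexes II, III or V was called lower in either strain. The 41 BN calls, lower ones included, became 27 with upper-quartile scaling, and they became 23, 25 and 19 without BN oil replicates 1, 2 and 3 and 21 and 19 without BN progesterone replicates 2 and 3. Of the 8 assembly factors 4 were higher in each strain, and of the 5 tested copies 3 were higher in each strain. The libraries of the HSD groups did not overlap in 69 higher members, against 22.8% of all genes, and those of the BN groups in 53, against 25.0%.

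**Figure D1:**
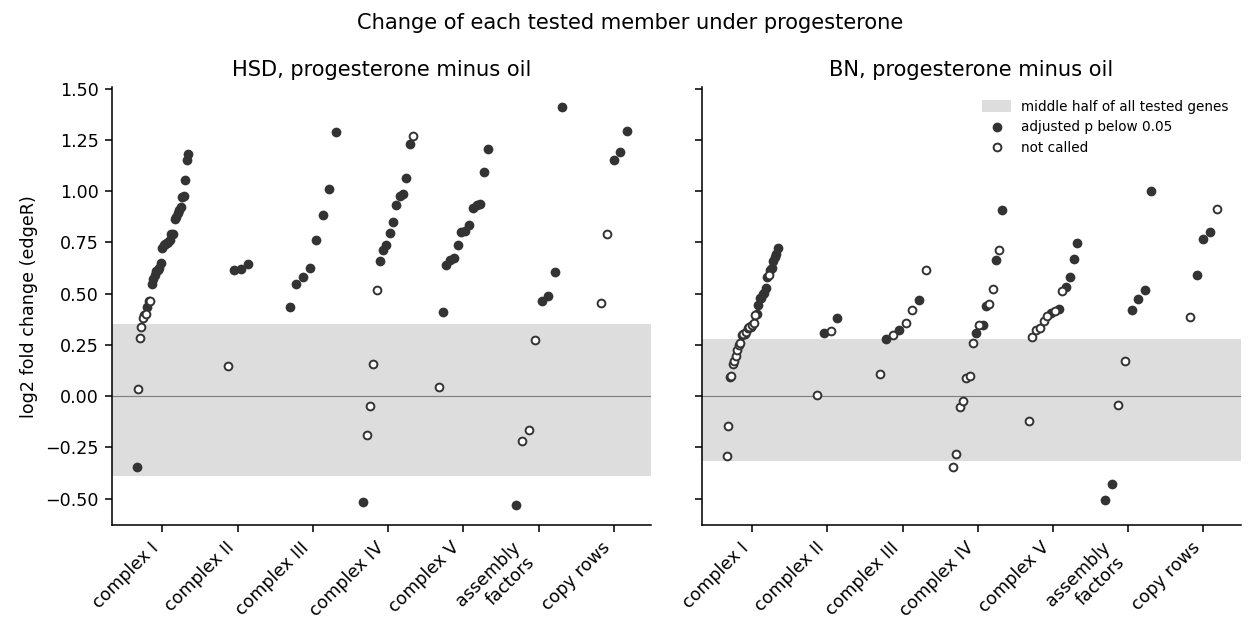
Log2 fold change of each tested member, progesterone minus oil, in HSD (left) and BN (right), by complex. Filled points passed the test, open points did not, and the grey band is the interquartile range of all 15697 tested genes. Most points of complexes I to V lie above 0 in both strains and reach higher in HSD, where 69 members were called higher, against 39 in BN.

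Reads of all 98 members together made up 1.11, 1.11 and 1.34% of gene reads in the HSD progesterone libraries, against 0.788, 0.878 and 0.781% in HSD oil. They made up 0.907, 1.07 and 1.02% in BN progesterone, against 0.776, 0.824 and 0.818% in BN oil. The progesterone and oil libraries did not overlap in either strain. Summed markers of white and brown adipocytes did not overlap either, with 189 to 209 CPM in HSD progesterone against 131 to 149.8 CPM in HSD oil, and 314 to 344 CPM in BN progesterone against 215 to 237 CPM in BN oil. Of their 8 rows 5 were tested, of which 2 were called higher and 1 lower in HSD and 4 higher in BN. Most of the sum was Lpl, lipoprotein lipase, while Adipoq, the adipocyte hormone adiponectin, averaged 30.8 CPM in HSD progesterone and 5.78 CPM in HSD oil, and 15.8 CPM in BN progesterone and 6.15 CPM in BN oil. In HSD alone, summed red blood cell markers (554 to 593 CPM in progesterone against 280.1 to 405 CPM in oil) and macrophage and dendritic cell markers (313 to 381 against 284 to 305 CPM) did not overlap, and in BN alone the endothelium markers (523 to 668 CPM in progesterone against 679 to 788 CPM in oil) did not. The part of these cells in the members' levels was not tested. In whole uterus, a change in the number of cells that express a gene and a change in its RNA per cell cannot be told apart.

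In 3 of the 4 groups a single library held the highest level of most members. Of the 90 tested members 70 had their highest level of the HSD progesterone group in replicate 3, 66 had their highest of HSD oil in replicate 2, and 66 had their highest of BN progesterone in replicate 2. In BN progesterone 71 had their lowest level in replicate 1. In BN oil the highest levels were spread, with 33, 37 and 20 members highest in replicates 1, 2 and 3. In the other 3 groups the libraries with the highest levels also had the lowest summed smooth muscle markers of their group, 10240 CPM in HSD progesterone replicate 3, 11830 CPM in HSD oil replicate 2 and 14627 CPM in BN progesterone replicate 2. The other libraries of these groups held between 15396 and 20411 CPM. The same libraries had the highest summed cytosolic ribosomal protein genes of their group, 72895, 61566 and 49336 CPM. They also had the lowest summed stromal fibroblast markers, 4466, 5770 and 5403 CPM, and endothelium markers, 426, 499.5 and 523 CPM. Their intron share of gene reads was the highest of their group, 23.0, 25.7 and 24.1%. Their share of uniquely placed reads was the lowest, 90.9, 91.1 and 91.8%. In BN oil replicate 3, not the library with the highest summed members, had the lowest smooth muscle and the highest ribosomal sum, 17462 and 48119 CPM. The part of any of these in the members' levels was not tested. Without HSD progesterone replicate 3, 65 members were higher and 2 lower in HSD.

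**Figure D2:**
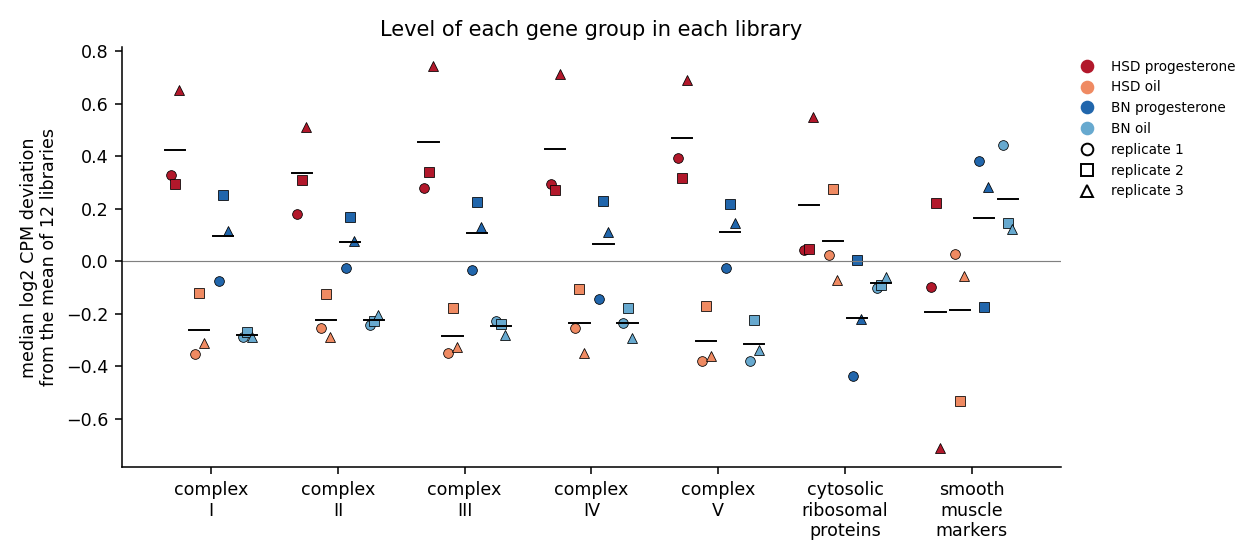
Median deviation of each gene group from its mean over the 12 libraries, in log2 CPM, per library (points, shape by replicate) with the mean of each group of 3 (bars). In complexes I to V all 3 HSD progesterone libraries lie above all 3 HSD oil libraries and all 3 BN progesterone libraries above all 3 BN oil libraries. HSD progesterone replicate 3 is the highest library for all 5 complexes and for ribosomal proteins, and the lowest for smooth muscle markers.

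Complex I is the entry point for NADH electrons. Its 7 core subunits, among them those that carry the flavin and the iron-sulfur clusters, had median log2 changes of 0.72 in HSD and 0.35 in BN. The 28 accessory subunits had medians of 0.69 and 0.35. Levels below are RPKM values, exon reads scaled to a library's gene reads and divided by exon length, which allow genes to be compared, and gene positions are on the build Rnor_5.0.

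Ndufb9, an accessory subunit of the membrane arm, had the largest averaged change in complex I (chromosome 7, 99411522 to 99417939, 4 exons). Its RPKM was 185, 149 and 189 in HSD progesterone, against 76.9, 90.0 and 80.2 in HSD oil. It was 117, 161 and 136 in BN progesterone, against 79.5, 96.4 and 85.5 in BN oil. Every progesterone library lay above every oil library. The log2 change was 1.18 ± 0.13 in HSD (edgeR adjusted p = 3.08e-05) and 0.68 ± 0.13 in BN (edgeR adjusted p = 0.00285).

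Ndufb8, another accessory subunit of the membrane arm, had the highest mean level of complex I (chromosome 1, 271741825 to 271746891). It averaged 194 ± 56.7 RPKM in HSD progesterone and 127 ± 10.2 in HSD oil, and 178 ± 33.1 in BN progesterone and 135 ± 10.9 in BN oil (SD, n = 3 each). It rose in HSD, by 0.61 ± 0.18 on the log2 scale (edgeR adjusted p = 0.0159), and BN gave 0.33 ± 0.18 (edgeR adjusted p = 0.197).

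Ndufv3, an accessory subunit of the NADH-binding module, was the subunit of complex I called lower (chromosome 20, 12455139 to 12464611). Its RPKM was 36.9, 35.6 and 27.5 in HSD progesterone, against 48.9, 40.5 and 42.0 in HSD oil. It was 35.1, 34.4 and 37.6 in BN progesterone, against 46.9, 40.4 and 45.3 in BN oil. The groups did not overlap in either strain. It fell by 0.35 ± 0.11 in HSD (edgeR adjusted p = 0.025), and BN gave -0.29 ± 0.11 (edgeR adjusted p = 0.0699).

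Complex II, succinate dehydrogenase, is shared with the citric acid cycle. Sdha, its flavoprotein (chromosome 1, 32971779 to 32996749, 15 exons), had 77.9, 89.7 and 69.1 RPKM in HSD progesterone, against 82.5, 71.4 and 74.7 in HSD oil. It had 78.2, 77.9 and 79.7 in BN progesterone, against 84.3, 78.4 and 81.3 in BN oil. The groups overlapped in both strains. The log2 change was 0.15 ± 0.09 in HSD (edgeR adjusted p = 0.212) and 0.00 ± 0.09 in BN (edgeR adjusted p = 0.982). The 150 bases of its promoter printed above hold 2 NRF1 matches, and the 300 bases searched hold 3, the other one spanning the start.

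The other 3 subunits of complex II were called in HSD. Sdhb, the iron-sulfur subunit, rose by 0.65 ± 0.09 in HSD (edgeR adjusted p = 0.000134) and by 0.31 ± 0.09 in BN (edgeR adjusted p = 0.0237). Sdhd, a membrane anchor (chromosome 8, 53625447 to 53634926), averaged 126 ± 18.1 RPKM in HSD progesterone and 86.5 ± 6.16 in HSD oil, and 110.4 ± 13.8 in BN progesterone and 84.7 ± 3.23 in BN oil. It rose in both strains, by 0.62 ± 0.12 in HSD (edgeR adjusted p = 0.00145) and by 0.38 ± 0.12 in BN (edgeR adjusted p = 0.0327). The BN calls of Sdhd and Sdhb were lost in 12 and 8 of 22 other settings, both with upper-quartile scaling and without any 1 of the BN oil libraries. Sdhc, the other anchor and the most abundant subunit by RPKM, rose in HSD by 0.62 ± 0.13 (edgeR adjusted p = 0.00204), and BN gave 0.32 ± 0.13 (edgeR adjusted p = 0.0834). The difference between these subunits and Sdha was not tested.

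Complex III passes electrons from coenzyme Q to cytochrome c, and all 8 rows counted as its subunits were higher in HSD. One of them, Uqcr10, is a row of 1 exon on chromosome 15, while RefSeq GRCr8 places Uqcr10 on another chromosome. Whether this row is a further copy was not examined. Uqcrq, an accessory subunit (chromosome 10, 38562435 to 38564716), had the largest averaged change. Its RPKM was 157, 186 and 199 in HSD progesterone, against 84.1, 98.6 and 60.4 in HSD oil. It was 69.7, 159 and 103 in BN progesterone, against 88.2, 64.2 and 69.9 in BN oil. The HSD groups were well apart, while BN progesterone replicate 1 lay among the oil libraries. The log2 change was 1.29 ± 0.22 in HSD (edgeR adjusted p = 0.000674) and 0.61 ± 0.22 in BN (edgeR adjusted p = 0.0609).

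Uqcrh, the hinge protein, was the most abundant subunit of complex III (chromosome 5, 138702848 to 138711012). It averaged 333 ± 77.9 RPKM in HSD progesterone and 201 ± 20.7 in HSD oil, and 246 ± 10.7 in BN progesterone and 194 ± 14.8 in BN oil. It rose by 0.76 ± 0.15 in HSD (edgeR adjusted p = 0.00143), and BN gave 0.36 ± 0.15 (edgeR adjusted p = 0.092). Uqcrc2, a core protein (chromosome 1, 197480625 to 197511182), had the smallest averaged change of the complex. Its log2 change was 0.44 ± 0.10 in HSD (edgeR adjusted p = 0.00474) and 0.11 ± 0.10 in BN (edgeR adjusted p = 0.48).

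Complex IV, cytochrome c oxidase, is the complex whose subunits exist as tissue isoforms, and its members varied widely. Cox6c, a small membrane subunit (chromosome 7, 74880039 to 74892526), had the highest level of the complex. Its RPKM was 573, 442 and 830.3 in HSD progesterone, against 315, 457 and 323 in HSD oil. It was 404, 549 and 483 in BN progesterone, against 332, 421 and 387 in BN oil. HSD progesterone replicate 3 was highest, and in RPKM the groups overlapped in both strains. Over gene reads it rose by 0.80 ± 0.21 in HSD (edgeR adjusted p = 0.00884), and BN gave 0.35 ± 0.21 (edgeR adjusted p = 0.244).

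The isoforms found in most tissues outnumbered their tissue-restricted partners by far. COX6A2, the heart and skeletal muscle isoform of Cox6a1, held between 0.122 and 1.29% of the summed RPKM of the pair in the 12 libraries, and its highest library had 26 reads. Ndufa4l2, a paralogue of the complex IV subunit Ndufa4, held between 0.401 and 3.65% of its pair. Cox8b, the other muscle isoform, lay between 0 and 1.12 RPKM, whereas Cox8a lay between 245 and 454. Cox6a1, Cox8a and Ndufa4 were all called higher in HSD, with log2 changes of 0.71 ± 0.10, 0.74 ± 0.12 and 1.06 ± 0.21 (edgeR adjusted p = 0.000168, 0.000372 and 0.00182). COX6A2 had the largest averaged log2 change of the complex, 0.99 ± 0.44, and missed the limit (edgeR adjusted p = 0.0838). Cox7a2, the common isoform of its family, rose by 0.98 ± 0.26 in HSD (edgeR adjusted p = 0.011), but only 18.1% of its exon reads were placed uniquely, so its level is uncertain.

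Cox4i1 and Cox4i2 encode alternative forms of a regulatory subunit of cytochrome c oxidase. Cox4i1 (chromosome 19, 64965335 to 64971575) had 336, 373 and 499.6 RPKM in HSD progesterone, against 369, 444 and 370.0 in HSD oil. It had 261, 339 and 344 in BN progesterone, against 338, 344 and 345 in BN oil. The groups overlapped in both strains, and the log2 changes were 0.16 ± 0.14 in HSD and -0.05 ± 0.14 in BN (edgeR adjusted p = 0.412 and 0.829).

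Cox4i2, known as the lung form (chromosome 3, 154637663 to 154648535), had 11.4, 22.1 and 10.0 RPKM in HSD progesterone, against 10.8, 6.32 and 7.17 in HSD oil. It had 16.5, 14.9 and 21.9 in BN progesterone, against 16.8, 14.1 and 13.2 in BN oil. HSD progesterone replicate 2 stood above the others of its group. Over gene reads Cox4i2 rose by 0.85 ± 0.22 in HSD (edgeR adjusted p = 0.00826), and BN gave 0.09 ± 0.21 (edgeR adjusted p = 0.803). The difference of the changes between the strains, -0.76 ± 0.30, missed the limit (edgeR adjusted p = 0.596). Its share of the summed RPKM of the pair ran from 1.40 to 5.98% over the 12 libraries.

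Cox6b1 and Cox6b2, the common and the testis form of a peripheral subunit, went opposite ways in HSD. Cox6b2 (chromosome 1, 75873174 to 75874397) had 5.74, 5.19 and 4.10 RPKM in HSD progesterone, against 7.89, 8.76 and 6.47 in HSD oil. It had 6.52, 5.86 and 6.26 in BN progesterone, against 5.89, 7.41 and 10.1 in BN oil. The HSD groups did not overlap and the BN groups did. Cox6b2 fell by 0.51 ± 0.16 in HSD (edgeR adjusted p = 0.0219) while Cox6b1 rose by 0.66 ± 0.12 (edgeR adjusted p = 0.000763). Its share of the pair was 3.58, 2.83 and 2.44% in HSD progesterone, against 6.66, 6.87 and 5.44% in HSD oil. Of the gene reads of Cox6b2 54.4% lay in introns, and over exon reads alone it gave -0.54 ± 0.23 in HSD (edgeR adjusted p = 0.0783). Of the exon reads of Cox6b1 72.9% were placed uniquely.

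Cox7a2l, known in mice as a factor that joins complexes III and IV into supercomplexes, had lower values after progesterone (chromosome 6, 6650357 to 6664094). It averaged 142 ± 17.6 RPKM in HSD progesterone and 187 ± 14.4 in HSD oil, and 126 ± 16.4 in BN progesterone and 171 ± 14.4 in BN oil. The log2 changes were -0.19 in HSD and -0.35 in BN, and it was called in neither strain. Averaged over the strains it fell by 0.27 ± 0.09 (edgeR adjusted p = 0.021), while its intron reads, 8.59% of its gene reads, gave 0.53. In that averaged comparison 72 members were higher and 5 lower, while 24.6 and 23.7% of all genes were higher and lower, 48.4% in all.

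**Figure D3:**
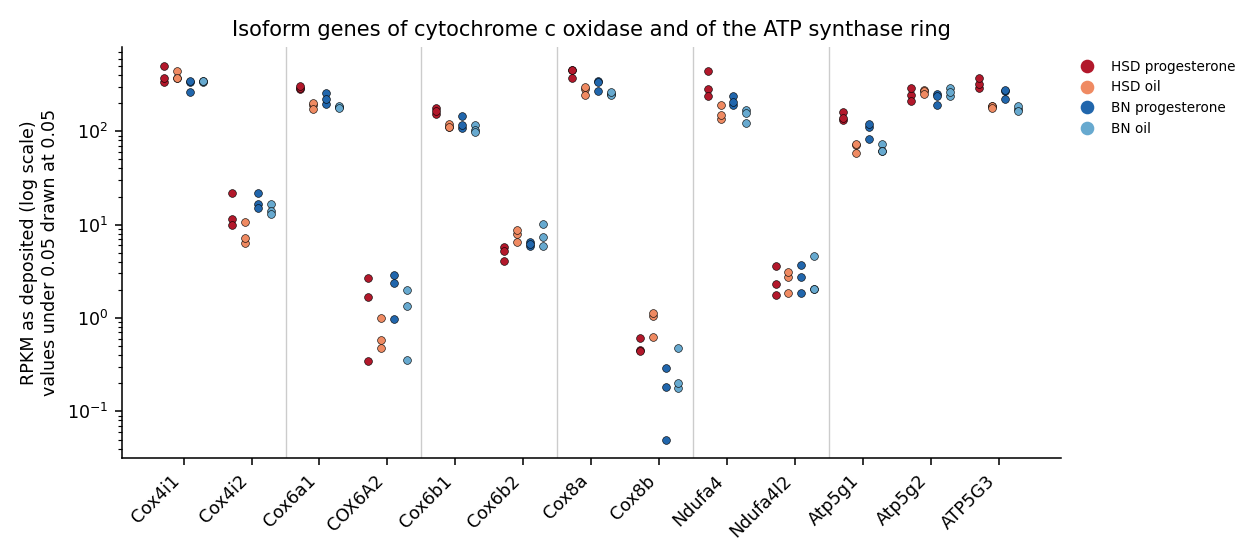
RPKM of isoform genes of cytochrome c oxidase and of the ATP synthase ring in each library, on a log axis, by group. Cox4i2, COX6A2, Cox6b2, Cox8b and Ndufa4l2 lie far under their partners, and Cox8b reaches 0 in a BN progesterone library, drawn at the axis floor of 0.05. In the ring, Atp5g1 and ATP5G3 lie higher in progesterone than in oil libraries, while Atp5g2 overlaps.

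Complex V makes ATP, and Atp5b, its catalytic subunit, was the most abundant of all members (chromosome 7, 2484095 to 2490338, 10 exons). Its RPKM was 696, 733 and 717 in HSD progesterone, against 442, 418 and 426 in HSD oil. It was 562, 602 and 668 in BN progesterone, against 426, 432 and 430.0 in BN oil. The oil libraries of the strains lay close together, and every progesterone library lay above them. The log2 change was 0.83 ± 0.10 in HSD (edgeR adjusted p = 5.21e-05) and 0.53 ± 0.10 in BN (edgeR adjusted p = 0.00237). All 5 subunits of the catalytic head, all 3 of the stalk and all 3 small membrane subunits were higher in HSD, and 2, 2 and 0 of them were higher in BN.

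The ring of complex V is built of a single mature protein that 3 genes encode with different import sequences, and Atp5g1 and ATP5G3 passed the test in both strains while Atp5g2 did not. Atp5g1 (chromosome 10, 83700817 to 83703415) had 132, 160.0 and 139 RPKM in HSD progesterone, against 70.5, 73.0 and 57.8 in HSD oil. It had 83.3, 112 and 119 in BN progesterone, against 73.8, 62.0 and 61.1 in BN oil. Every progesterone library lay above every oil library of its strain, and the log2 changes were 1.21 ± 0.14 in HSD and 0.67 ± 0.14 in BN (edgeR adjusted p = 3.16e-05 and 0.00362).

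ATP5G3 (chromosome 3, 67289968 to 67292590) had 289, 319 and 371 RPKM in HSD progesterone, against 185, 187 and 178 in HSD oil. It had 224, 270.4 and 276 in BN progesterone, against 174, 186 and 165 in BN oil. The groups were apart in both strains, with log2 changes of 0.93 ± 0.11 and 0.58 ± 0.11 (edgeR adjusted p = 5.43e-05 in HSD and 0.00287 in BN).

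Atp5g2 (chromosome 7, 142056432 to 142064809) had 242, 291 and 211 RPKM in HSD progesterone, against 277, 267 and 254 in HSD oil. It had 189.6, 249 and 237 in BN progesterone, against 289, 241 and 261 in BN oil. The groups overlapped in both strains, with log2 changes of 0.04 ± 0.12 and -0.12 ± 0.12 (edgeR adjusted p = 0.792 in HSD and 0.483 in BN). Atp5g2 held 36.5, 37.8 and 29.3% of the summed ring RPKM in HSD progesterone, against 52.0, 50.7 and 51.8% in HSD oil. It held 38.2, 39.5 and 37.5% in BN progesterone, against 53.8, 49.3 and 53.6% in BN oil. These shares did not overlap between treatments in either strain. Of the promoters printed above, that of Atp5g2 holds an NRF1 match and that of Atp5g1 holds no NRF1, ETS or YY1 match in these 150 bases. The promoter of ATP5G3, which passed the test in both strains, is not printed. In the 300 bases searched it holds 1 NRF1 match, which lies after the start.

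Among the assembly factors Ndufaf4, a complex I assembly factor (chromosome 5, 43880679 to 43885850), had 27.5, 21.7 and 30.1 RPKM in HSD progesterone, against 9.50, 11.1 and 10.9 in HSD oil. It had 32.8, 31.2 and 31.6 in BN progesterone, against 15.2, 16.9 and 16.4 in BN oil. The groups were far apart in both strains, and the log2 changes were 1.41 ± 0.12 in HSD and 1.00 ± 0.12 in BN (edgeR adjusted p = 3.75e-06 and 0.000109).

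Atp5s and Atp5sl, a pair of related genes named for the ATP synthase, were among the few members called lower. Atp5s (chromosome 6, 101507336 to 101525541) had 2.38, 3.84 and 3.40 RPKM in HSD progesterone, against 4.90, 4.42 and 5.04 in HSD oil. It had 2.56, 3.53 and 2.51 in BN progesterone, against 4.27, 4.63 and 4.83 in BN oil. The groups did not overlap, and it fell by 0.53 ± 0.16 in HSD and by 0.51 ± 0.16 in BN (edgeR adjusted p = 0.0164 and 0.0314). Counted over unique exon-exon reads alone the changes were 0.14 ± 0.23 in HSD and -0.24 ± 0.24 in BN (edgeR adjusted p = 0.672 and 0.517), and over exon reads the HSD change was -0.47 ± 0.19 (edgeR adjusted p = 0.0587).

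Atp5sl, known in human cells as a complex I assembly factor (chromosome 1, 83674728 to 83680655), fell by 0.43 ± 0.10 in BN (edgeR adjusted p = 0.00717), and HSD gave -0.22 ± 0.10 (edgeR adjusted p = 0.0921). It averaged 15.4 ± 1.69 RPKM in BN progesterone and 21.8 ± 1.33 in BN oil, and 18.8 ± 0.304 in HSD progesterone and 24.2 ± 1.01 in HSD oil.

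Copies of a gene can share reads with it. Of the 98 members 12 had under 80% of their exon reads placed uniquely, among them Atp5f1 and its copy ATP5F1 with 36.0 and 30.9%. The 9 of these that were tested had median log2 changes of 0.98 in HSD and 0.59 in BN, against 0.67 and 0.35 in the 81 tested members above that limit, of which 62 were higher in HSD and 34 in BN. Further, 10 members overlap another gene on the opposite strand, among them Atp5j with Gabpa and Ndufab1 with Cog7, and no source used here says whether counting used the strand.

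Genes that work with the complexes but lie outside the name pattern were followed in lists of named genes. Of 7 tested electron carriers and further subunits 3 rose in HSD and 2 in BN. Cycs, which encodes cytochrome c, rose by 2.65 ± 0.23 in HSD and by 2.55 ± 0.23 in BN (edgeR adjusted p = 3.69e-06 and 1.20e-05), more than the largest change among the 90 tested members. Its mean level was 407 CPM in HSD progesterone against 64.9 in HSD oil, and 416 CPM in BN progesterone against 71.0 in BN oil. CYC1, the cytochrome c1 of complex III, rose by 0.89 ± 0.14 and 0.65 ± 0.14 (edgeR adjusted p = 0.000332 in HSD and 0.00472 in BN). Usmg5, a small ATP synthase subunit, rose by 1.06 ± 0.24 in HSD (edgeR adjusted p = 0.00356).

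Of 21 genes for mitochondrial import, structure and nucleotide exchange 20 rose in HSD and 16 in BN, none fell, and their medians were 0.66 and 0.43. Slc25a5, an ADP/ATP carrier, had log2 changes of 1.73 ± 0.10 in HSD and 1.33 ± 0.10 in BN (edgeR adjusted p = 1.39e-07 and 2.69e-06). Timm23, a channel of the inner membrane import machinery, rose by 1.26 ± 0.09 and 0.96 ± 0.09, and Hspe1, a matrix chaperonin, by 1.74 ± 0.15 and 1.30 ± 0.15.

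The other lists were mixed. Of 38 tested assembly factors outside the name pattern 15 rose and 3 fell in HSD, and 6 rose and 3 fell in BN. Cox10, which farnesylates the heme of cytochrome c oxidase, fell by 1.57 ± 0.11 in HSD and by 0.64 ± 0.11 in BN (edgeR adjusted p = 5.37e-07 and 0.000940). Surf1, another factor of that complex, rose by 0.99 ± 0.09 and 0.69 ± 0.09, and Higd1a, a small inner membrane protein, by 1.59 ± 0.18 and 1.13 ± 0.18. Of 13 genes of coenzyme Q synthesis 4 rose and 2 fell in HSD, and 4 rose and 1 fell in BN. Of 20 regulators of mitochondrial gene expression 5 rose and 0 fell in each strain. Those are 25% of the list, and of all genes 20.3% were higher in HSD and 14.0% in BN. Of the assembly factors 39.5% were higher in HSD and 15.8% in BN, the second a share near that of all genes. Among the regulators that rose were Esrra, an orphan nuclear receptor, with 0.90 ± 0.12 and 0.62 ± 0.12, and Pprc1, a coactivator of the PGC-1 family, with 1.06 ± 0.21 and 1.08 ± 0.21.

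The subunits encoded by mitochondrial DNA were looked at beside the nuclear ones. Of 13 named protein genes of the mitochondrial chromosome 2 rose in HSD, COI and MT-ATP8, and 0 in BN, with median log2 changes of 0.46 and 0.06. The 2 are 15.4% of the list, where 20.3% of all genes were higher in HSD and 14.0% in BN. The libraries of the HSD groups overlapped in all 13. The difference between the mitochondrial and the nuclear subunits was not tested, and the libraries were made from polyadenylated RNA. Mitochondrial genes held 6.49 ± 1.40% of gene reads in HSD progesterone and 5.39 ± 0.393% in HSD oil, and 4.76 ± 0.475% in BN progesterone and 4.72 ± 0.390% in BN oil (SD, n = 3 each).

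The calls of higher members were nested. All 39 members called higher in BN were also called higher in HSD, 30 were called in HSD alone, and 0 were called in opposite directions. This overlap was not counted over all genes, of which 20.3% were called higher in HSD and 14.0% in BN. Whether it is particular to the members was therefore not tested. The BN change lay below the HSD change in 84 of the 90 tested members, with a median difference of -0.31, against a median of -0.00 over all genes. Other short or abundant genes shifted the same way. The median difference was -0.27 in 78 cytosolic ribosomal protein genes, with 3 of them above 0, and -0.36 in the 13 protein genes of the mitochondrial chromosome, with 0 above 0. It was -0.17 in other genes of up to 500 bases of exon and -0.15 in those of 501 to 1000 bases, and Spearman's rho of the difference on exon length was 0.42 over the 90 members and 0.23 over the 15607 other genes. A test of the difference of the changes called 0 of the 90 members in edgeR and 0 in DESeq2, where edgeR called 0.051% of all genes. At an unadjusted p below 0.05 it gave 18 members, against 7.22% of all genes. The smallest adjusted p was 0.350, for UQCRB, a copy of the complex III gene Uqcrb.

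BN against HSD under progesterone asks where the treated uteri of the strains differ. In that comparison 0 members were higher and 10 lower, with a median log2 difference of -0.36. Of all genes 5.73% were called, 2.43% higher and 3.31% lower in BN. The 10 were Ndufa10, Cox6a1, Cox8a, Ndufaf6, Cox5b, Atp5g1, Cox6b1, Atp5sl, Cox5a and Sdhb. Cox6a1 had 197, 256 and 219.9 RPKM in BN progesterone, against 283, 290.3 and 302 in HSD progesterone. The groups did not overlap, and the log2 difference was -0.44 ± 0.10 (edgeR adjusted p = 0.0259).

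Cox8a (chromosome 1, 229457140 to 229459465) averaged 316 ± 41.4 RPKM in BN progesterone and 426 ± 46.2 in HSD progesterone, a log2 difference of -0.50 ± 0.12 (edgeR adjusted p = 0.0273). Cox5b (chromosome 9, 42912193 to 42914547) averaged 172 ± 36.5 and 246 ± 28.4, a difference of -0.59 ± 0.15 (edgeR adjusted p = 0.0367). Atp5g1 differed by -0.54 ± 0.14 (edgeR adjusted p = 0.0371). Summed cytosolic ribosomal protein genes lay between 36392 and 49336 CPM in BN progesterone and between 51010 and 72895 CPM in HSD progesterone. Summed epithelium markers were also lower in BN without overlap, at 842 to 1072 against 1120 to 1221 CPM. So were red blood cell (74.3 to 270 against 554 to 593 CPM) and T and NK cell markers (7.88 to 8.85 against 12.4 to 15.7 CPM). Adipocyte markers were higher in BN, at 314 to 344 against 189 to 209 CPM, and the other marker sums overlapped. The part of any of these in the difference was not tested. Without BN progesterone replicate 1 a single member was called, without HSD progesterone replicate 2 there were 32, and without HSD progesterone replicates 1 or 3, or BN progesterone replicate 3, there were 6, 5 and 2.

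BN against HSD under oil asks where the uteri given vehicle differ, and the oil groups lay close together. Of the 90 members 2 were higher and 2 lower in BN, with a median of -0.02, while 5.69% of all genes were called, 2.34% higher and 3.34% lower. Ndufaf4 averaged 16.2 ± 0.905 RPKM in BN oil and 10.5 ± 0.882 in HSD oil, a log2 difference of 0.61 ± 0.12 (edgeR adjusted p = 0.0118). Its call was lost with unique exon-exon reads, at 0.53 ± 0.23 (edgeR adjusted p = 0.316), with intron reads, at 0.33 ± 0.23 (edgeR adjusted p = 0.501), and without HSD oil replicate 1, BN oil replicate 2 or BN oil replicate 3. Cox4i2 averaged 14.7 ± 1.90 in BN oil and 8.08 ± 2.35 in HSD oil, a difference of 1.07 ± 0.22 (edgeR adjusted p = 0.0121). Over exon reads alone the Cox4i2 difference was 0.88 ± 0.27 (edgeR adjusted p = 0.101), and over unique exon-exon reads 0.81 ± 0.26 (edgeR adjusted p = 0.133). Intron reads, 37.7% of the gene reads of Cox4i2, differed by 1.35 ± 0.20 (edgeR adjusted p = 0.000397). Summed smooth muscle markers, all 11 of them tested, lay between 17462 and 21469 CPM in BN oil and between 11830 and 16947 CPM in HSD oil. Summed endothelium markers lay between 679 and 788 CPM in BN oil and between 499.5 and 639 CPM in HSD oil. Stromal fibroblast sums were also higher in BN oil without overlap, at 6659 to 7387 against 5770 to 6395 CPM. So were striated muscle (798 to 965 against 589 to 639 CPM), adipocyte and, narrowly, macrophage and dendritic cell sums. Lower in BN oil without overlap were epithelium (884 to 931 against 989 to 1454 CPM) and red blood cell sums (73.1 to 116 against 280.1 to 405 CPM). T and NK cell sums overlapped. The part of these cells in Cox4i2 was not tested.

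Ndufa10 and Ndufaf6, the members called lower in BN under both treatments, differed between strains in their introns. Ndufa10, an accessory subunit of complex I (chromosome 9, 99282166 to 99316927, 10 exons), had an intron-read CPM of 32.6, 41.0 and 38.1 in BN progesterone, against 100.6, 95.6 and 116 in HSD progesterone. It had 22.3, 21.6 and 24.8 in BN oil, against 82.3, 87.2 and 77.3 in HSD oil. The strains were far apart, with log2 differences in intron reads of -1.66 ± 0.12 under progesterone and -1.84 ± 0.12 under oil (edgeR adjusted p = 1.06e-07 and 4.85e-08).

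In exon-read CPM Ndufa10 averaged 85.3 ± 0.739 in BN oil and 79.8 ± 0.456 in HSD oil, and 112 ± 2.58 in BN progesterone and 146 ± 5.85 in HSD progesterone (SD, n = 3 each). The log2 difference in exon reads under oil was 0.10 ± 0.09 (edgeR adjusted p = 0.688), where gene reads had given -0.58 ± 0.08 (edgeR adjusted p = 0.00135). Unique exon-exon reads under oil went the other way from gene reads, with 0.41 ± 0.10 (edgeR adjusted p = 0.0516). They ran from 46.1 to 48.5 CPM in BN oil and from 35.5 to 36.7 CPM in HSD oil. Under progesterone the exon reads still differed, by -0.43 ± 0.09 (edgeR adjusted p = 0.0165), and unique exon-exon reads gave -0.19 ± 0.10 (edgeR adjusted p = 0.312). Progesterone raised Ndufa10 in both strains, by 0.96 ± 0.09 in HSD and 0.43 ± 0.09 in BN in exon reads (edgeR adjusted p = 6.10e-06 and 0.00425).

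Ndufaf6, a complex I assembly factor with 64.6% of its gene reads in introns (chromosome 5, 29024405 to 29048252, 9 exons), differed between strains in intron reads too. Its intron reads differed by -0.78 ± 0.14 under progesterone and -0.79 ± 0.14 under oil (edgeR adjusted p = 0.00332 and 0.00205). Its exon reads differed by -0.06 ± 0.18 and -0.12 ± 0.18 (edgeR adjusted p = 0.868 and 0.855). Sequence differences between the strains in these introns were not analysed here.

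**Figure D4:**
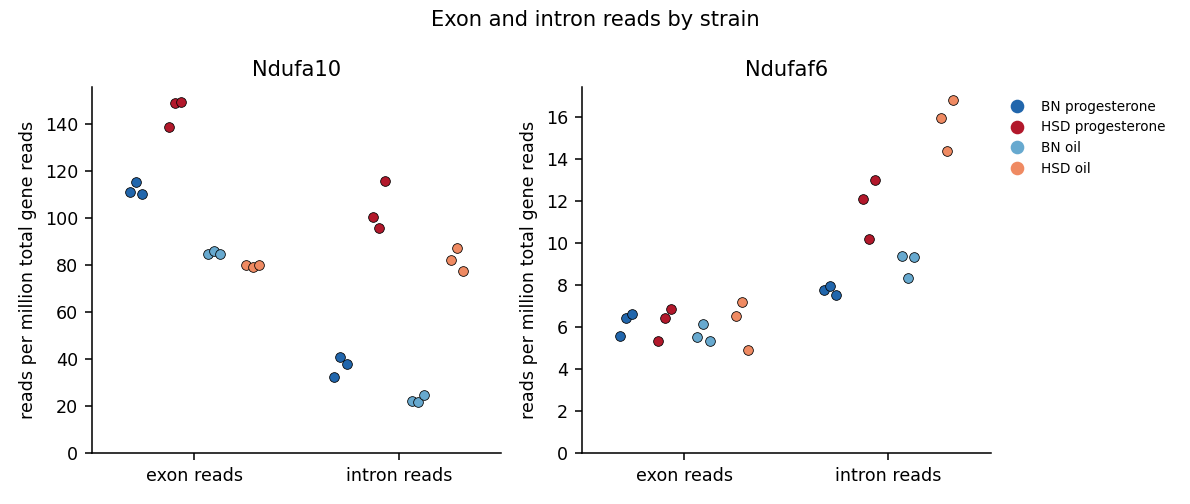
Exon reads and intron reads of Ndufa10 (left) and Ndufaf6 (right) in each library, in CPM of gene reads, by group. Intron reads of BN libraries lie below those of HSD libraries under either treatment, while exon reads of the strains under oil lie close together for Ndufa10 and overlap for Ndufaf6.

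Intron reads were also counted over all members as a separate readout. Of 82 members with enough intron reads 31 were higher and 2 lower in HSD, where 13.9% of all genes were higher and 13.2% lower. In BN 10 were higher and 0 lower, where 8.65% of all genes were higher and 9.47% lower. The share higher in BN thus lay near that of all genes. The members' medians were 0.32 in HSD and 0.18 in BN, against 0.003 and -0.007 over the 13523 genes tested in intron reads. In exon reads the members' medians were 0.76 in HSD and 0.38 in BN, with 70 of 90 higher in HSD and 30 in BN. Of the 14358 genes tested in exon reads 20.5% were higher in HSD and 13.0% in BN, with medians of -0.02 and -0.03.

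Members have short transcripts, with a median exon length of 673.5 bases (249 to 2674), against 2023 bases in the other tested genes, so their changes were set beside those of other genes of like length. In HSD the changes of shorter genes were slightly more positive, with Spearman's rho of log2 change on exon length of -0.29 over 90 members and -0.16 over the 15607 other genes, values that share the same 6 libraries. Within every length class that held members, a larger share of members was called higher. Up to 500 bases 16 of 23 members were higher in HSD, against 20.6% of other genes, and from 501 to 1000 bases 32 of 38, against 23.8%. From 1001 to 1500 bases it was 9 of 12, against 24.4%, from 1501 to 2000 bases 8 of 12, against 21.8%, and from 2001 to 3000 bases 4 of 5, against 18.9%.

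In BN the counts in the same classes were 5 of 23 against 7.33%, 18 of 38 against 12.6%, 8 of 12 against 15.4%, 4 of 12 against 14.4% and 4 of 5 against 14.6%. Cytosolic ribosomal protein genes, which are short and abundant as well, gave 7 higher of 78 in HSD and 1 of 78 in BN, with medians of 0.15 and -0.13. With a fitted term for exon length in each library, 68 members were higher and 4 lower in HSD, and 41 higher and 3 lower in BN.

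The strain comparison under progesterone was tied more closely to length. There rho was 0.46 over the 90 members and 0.25 over the other genes. With the length term 1 member was higher and 1 lower in BN, in place of 0 and 10, and the median moved to -0.18.

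**Figure D5:**
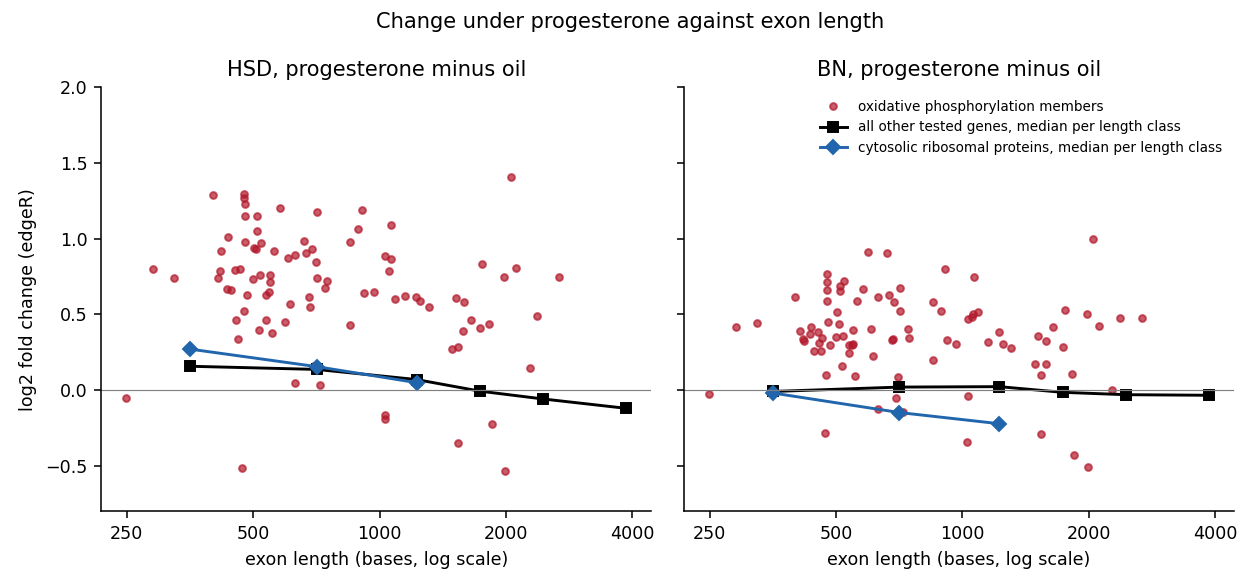
Log2 fold change against exon length (log axis) for the tested members (red points) in HSD (left) and BN (right), with the median of all other tested genes (black squares) and of cytosolic ribosomal protein genes (blue diamonds) in each length class of at least 5 genes. Most members lie above the medians of other genes of like length in both panels, and those called lower lie below them.

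The promoter motifs were set beside the changes. In HSD 11 of 15 tested members with an NRF1 match were higher, with a median log2 change of 0.67, and 46 of 59 without, with a median of 0.67. For the ETS motif it was 18 of 21 with a match, median 0.72, and 39 of 53 without, median 0.66. For YY1 it was 12 of 15, median 0.62, and 45 of 59, median 0.74. In BN 8 of 15 members with an NRF1 match were higher and 25 of 59 without, with medians of 0.41 and 0.35. For the ETS motif the BN counts were 5 of 21 and 28 of 53, with medians of 0.35 and 0.40. For YY1 they were 5 of 15 and 28 of 59, with medians of 0.33 and 0.40. For the Sp1 motif the HSD counts were 22 of 31 with a match and 35 of 43 without, with medians of 0.63 and 0.72. In BN the Sp1 counts were 11 of 31 and 22 of 43, with medians of 0.34 and 0.37. None of these differences was tested.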

How the data were processed

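Uterine polyadenylated RNA of 12 rats was sequenced from TruSeq libraries, 1 per animal, per the labels' protocols. The authors deposited, for each library, whole-number counts of reads per gene (total, unique, exon, intron and exon-exon) and RPKM values, which exon reads, exon length and total gene reads gave back for all 98 members. The build is Rnor_5.0, per the submitters' processing notes, and the aligner and counter are not stated in the labels or file headers. Groups came from the labels' strain and treatment.

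Total gene read counts were tested with edgeR 4.0.16 (R 4.3.3; TMM factors, expression filter, robust quasi-likelihood fit of all 4 groups) over 15697 genes. Standard errors were derived from each log2 change and its F statistic. The procedure was tested on simulated data. Replicate pairs differed beyond counting noise (chi-square per degree of freedom 4.71 to 82.9). A count of 3 reads equals 0.158 to 0.255 CPM, and such floors cover counting error only. CPM use TMM-scaled library sizes, and intron and exon reads of single genes use unscaled ones.

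Alternatives were library size alone, upper-quartile scaling, no filter, exon, unique gene and unique exon-exon reads, a length term, log2(RPKM + 0.1) with limma 3.58.1, DESeq2 1.42.0, leaving out each library and, chosen after seeing the data, intron reads. Named were, per complex, the members with the highest level and the largest and smallest averaged change, members called lower, isoform pairs, and up to 6 members called between strains; UQCRB, the remaining strain calls and the copies with few unique reads were named after their values were seen. Members and lists were chosen with earlier results of these data known.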

Additional observations from a re-analysis of the deposited data

How the results depend on the processing

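For 99 results of 31 named members, 1902 alternative values kept direction and side of the limit, 180 lost a call, 32 gained one and 60 turned; causes were not tested unless the setting itself shows them. Of the 69 members higher in HSD 30 kept their call in every setting, of the 39 in BN 6, and of the 10 lower in BN under progesterone 0. Of 22 settings, BN calls were lost in 16 for Cox8a, 15 for Cox6a1, 14 for Cox5b, 12 for Sdhd, 8 for Sdhb and 6 for Atp5s, and HSD calls in 6 for Cox6b2 and 3 each for Ndufv3 and Atp5s. Averaged, they were lost in 8 for Cox4i2. Between strains they were lost in 7 to 16 for 9 of the 10 under progesterone and in 1 for Ndufa10, and under oil in 5 for Ndufaf4, 5 for Ndufaf6, 4 for Cox4i2 and 3 for Ndufa10. Members called in HSD numbered 72, against 33 with intron reads (66 to 74 leaving out 1 library). In BN the 41 calls became 27 with upper-quartile scaling, 24 with unique exon-exon reads, where fewer reads were counted, and 10 with intron reads. Leaving out 1 library gave 19 to 55 in BN, with 23, 25 and 19 without BN oil replicates 1, 2 and 3, and 21 and 19 without BN progesterone replicates 2 and 3. Averaged over strains the 77 calls became 39 with intron reads (74 to 79 leaving out 1 library). The 10 calls of BN against HSD under progesterone became 1 with library size alone, 6 without the filter, 2 with exon reads, 2 with exon-exon reads, 2 with the length term, 1 with RPKM and 24 in DESeq2 (1 to 32 leaving out 1 library). The 4 under oil became 1 with exon reads, 0 with exon-exon reads and 1 with RPKM (2 to 5). Scaling by library size alone moved the median of all genes by -0.14 in HSD.

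Log2 changes that turned were mostly near 0. For Atp5g2 in HSD they were -0.075 with library size, -0.022 with upper-quartile scaling, -0.014 with exon reads, -0.041 with exon-exon reads, -0.11 with the length term and -0.11 with RPKM (-0.032 to 0.11 leaving out 1 library). Sdha in BN gave -0.034, -0.053, -0.019, -0.044 and -0.048 with library size, upper-quartile, exon reads, exon-exon reads and RPKM, and -0.0070 in DESeq2 (-0.035 to 0.016). Ndufaf6 gave 0.098, 0.12 and 0.0082 in HSD and 0.15, 0.11 and 0.12 in BN with exon reads, exon-exon reads and RPKM, and its strain difference under progesterone was 0.0032 with RPKM. Ndufa10 under oil gave 0.10, 0.41 and 0.095 in the same settings. Ndufa4l2 in HSD gave 0.039 with exon reads and 0.062 with exon-exon reads (-0.23 to 0.16; in BN -0.33 to 0.41). Atp5s in HSD gave 0.14 with exon-exon reads. Cox4i1 in HSD gave -0.0012 with the length term (-0.023 to 0.27; in BN -0.13 to 0.025), and Cox4i2 in BN ranged from -0.12 to 0.20. With intron reads, averaged, HSD and BN values were -0.10, -0.017 and -0.18 for Cox6a1, 0.53, 0.81 and 0.24 for Cox7a2l, and -0.28, -0.25 and -0.31 for Uqcrc2. Intron reads also gave -0.030 averaged and -0.14 in BN for Ndufb8, 0.26, 0.15 and -0.24 in BN for Atp5g2, Cox4i1 and Cox4i2, and 0.16 for Cox6b1 between strains under progesterone.

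No paired analysis was possible because the animal numbers in the labels do not recur between groups and replicate numbers only follow accession order.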
